A study of Saccharomyces cerevisiae with 60 samples.

Results

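The ROG3 locus is a 10 kb stretch of chromosome VI of budding yeast, chrVI:194001-204000 in coordinates of the R64 genome build. The deposited files cut it into 200 of the 241434 windows of 50 bp, and these were joined here into 20 of 24134 bins of 500 bp. It was picked as the strongest region of Fkh1-FLAG signal in G1 cells, so the values that picked it are given below as a description, without a test. At a resolution of 500 bp its highest bin, chrVI:199001-199500, had the 3rd highest ratio of Fkh1-FLAG to control among 20883 bins, at 5.77. Just above it were a bin between FLR1 and HHF1 on chromosome II (6.58) and a bin between ARP7 and GLN1 on chromosome XVI (5.84), and just below it a bin between IDI1 and HOS3 on chromosome XVI (5.33).

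The study used ChIP-seq, in which DNA cross-linked to an epitope-tagged protein is recovered with an antibody and sequenced, and it tested controls for signal that does not come from the tagged protein. There were 60 libraries, 3 in each of 20 groups. The untagged strain was precipitated with anti-FLAG, anti-MYC or anti-HA. The control strains carry bacterial LexA fused to FLAG (FLOP) or MYC (MOP) beside ADE2, or to HA (HOP) beside TRP1, together with binding sites for LexA. LexA-MYC and LexA-HA are driven by the ADH1 promoter and LexA-FLAG by the stronger TEF1 promoter. In the experimental strains the tagged Fkh1, Orc1, Mcm4 or Sir2 is made in addition to the tagged LexA, except in the plain Fkh1-FLAG and Fkh1-MYC strains and in the fkh1-dbm-FLAG and fkh1-dbm-MYC strains, where only Fkh1 or its DNA-binding mutant is tagged. Cells were unsynchronized, or held in G1 with alpha-factor for the groups named G1. The anti-HA libraries of G1 cells were made with antibody 12CA5 alone, those of unsynchronized cells with 12CA5 and 16B12, so for HOP the culture and the antibody cannot be told apart. The labels do not say that the 3 libraries of a group came from separate cultures, so the tests measure the spread between these libraries.

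Replication of yeast chromosomes starts at autonomously replicating sequences. The origin recognition complex (ORC), of which Orc1 is the largest subunit, stays on them, and in G1 it loads the MCM helicase, of which Mcm4 is a subunit. Fkh1 is a forkhead transcription factor that also binds near a subset of origins and makes them fire early, and Sir2 is a histone deacetylase that silences the mating-type cassettes, telomeres and rDNA. The gap between ROG3 and PES4 is known to hold ARS607, one of the earliest and most efficient origins of the genome.

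The signal used here is the count per window after a moving median over 10 windows, divided by the 20th percentile of the library, so that 1 is background. A ratio is the averaged signal of an experiment divided by that of its control. Summed counts per library ranged from 2116658 to 44263661. The median 20th percentile of a group ranged from 10.5 counts per window in untagged anti-MYC to 126.5 in Fkh1-FLAG (FLOP), and the untagged anti-MYC, MOP, Fkh1-MYC (MOP) and anti-HA G1 libraries, at 6 to 32 counts, give the least precise values at this locus.

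Of the genes in the region, ATG18 (chrVI:194812-196314, an autophagy protein that binds phosphoinositides), ROG3 (chrVI:196833-199034, an arrestin-related adaptor of the ubiquitin ligase Rsp5) and PES4 (chrVI:199874-201709, a protein related to poly(A)-binding protein) are read to the right. LSB3 (chrVI:201960-203433, an actin patch protein) and HIS2 (chrVI:203743-204750, histidinol phosphatase) are read to the left. Between the end of ROG3 and the start of PES4 lie 839 bp, and the annotated non-coding RNA RUF22 (chrVI:199299-199813) covers 515 bp of them on the other strand. The bin with the highest Fkh1-FLAG ratio, called the Fkh1 bin below, is also the bin that holds the middle of this gap.

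In G1 cells Fkh1-FLAG signal stood over the gap between ROG3 and PES4 and fell away over both genes. The Fkh1 bin measured 5.74, 6.93 and 6.85 in the 3 Fkh1-FLAG (FLOP) G1 libraries and 1.04, 1.14 and 1.20 in the FLOP G1 libraries. The highest window of the region held 510, 592 and 501 counts in the former, at the same window in all of them, and 124, 104 and 112 in the latter. Of the 20 bins, 4 had a ratio of at least 2, against 0.742% of all bins, and as the locus was chosen on this ratio nothing is read from that count. Averaged over the windows of each gene, the ratio was 6.62 over RUF22, 1.51 over ROG3 and 1.62 over PES4. It was between 0.969 and 1.08 over ATG18, LSB3 and the part of HIS2 inside the region.

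**Figure D1:**
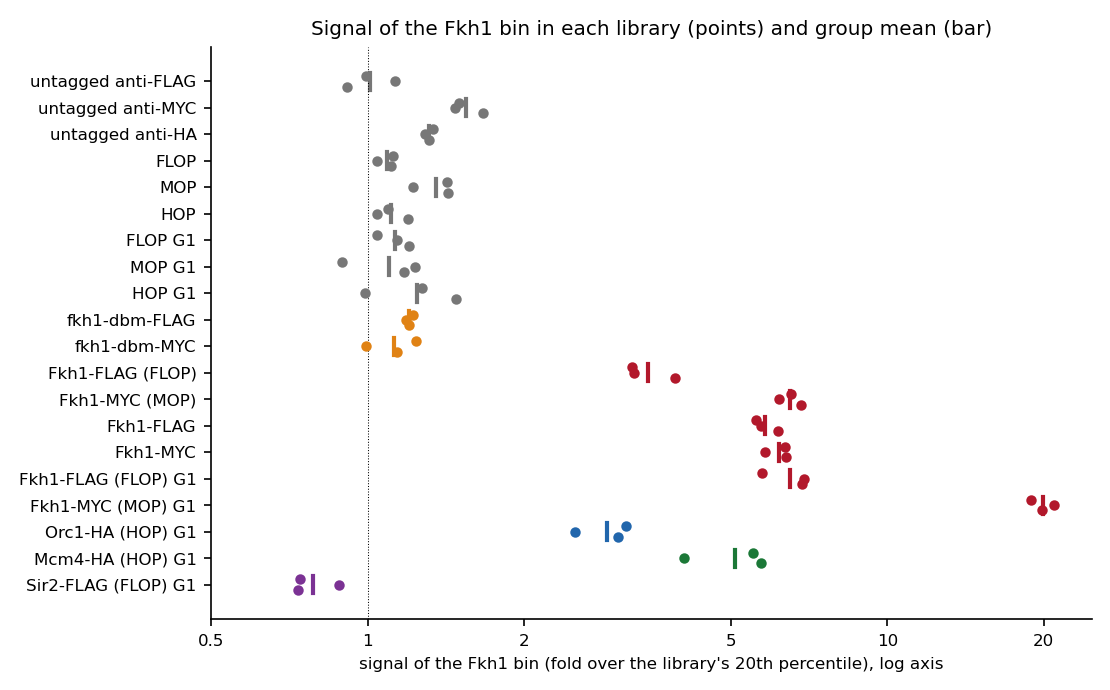
Signal of the Fkh1 bin in each of the 60 libraries (points, 3 per group) with the group mean (bar), as fold over the 20th percentile of the library on a log axis. Untagged, LexA and fkh1-dbm libraries lay between 0.894 and 1.67, the Sir2-FLAG libraries between 0.734 and 0.881, and the Fkh1, Orc1 and Mcm4 libraries from 2.50 to 20.9.

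The MYC-tagged protein, in libraries that had no part in choosing the locus, gave the highest signal of the series here. The paper points out that the tags differed in their number of repeats. The heights of MYC and FLAG signals therefore cannot be read as a difference in binding. The Fkh1 bin measured 18.9, 20.9 and 19.9 in the Fkh1-MYC (MOP) G1 libraries and 0.894, 1.24 and 1.17 in MOP G1. Every Fkh1-MYC library was far above every control library. The log2 fold change was 4.36 ± 0.22 (SE) with an adjusted p of 1.34e-28 (edgeR). The ratio of 18.1 was the 5th highest of 20878 bins, where the median bin had 1.01. Called enriched (adjusted p under 0.05, log2 change no smaller than 1) were 11 of the 20 bins, against 5.78% of all bins tested. They ran without a break from chrVI:196501 to chrVI:201500, with 1 further bin at chrVI:202001-202500, so that Fkh1-MYC signal reached over ROG3 and most of PES4 as well. The ratio over ROG3 was 4.73, over PES4 4.64 and over RUF22 22.3, and over the part of HIS2 inside the region it was 1.14. Next to the peak the ratio dropped from 18.1 to 8.23 in the bin to the left and, beyond the second bin of the peak (18.0), to 6.78 on the right.

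**Figure D2:**
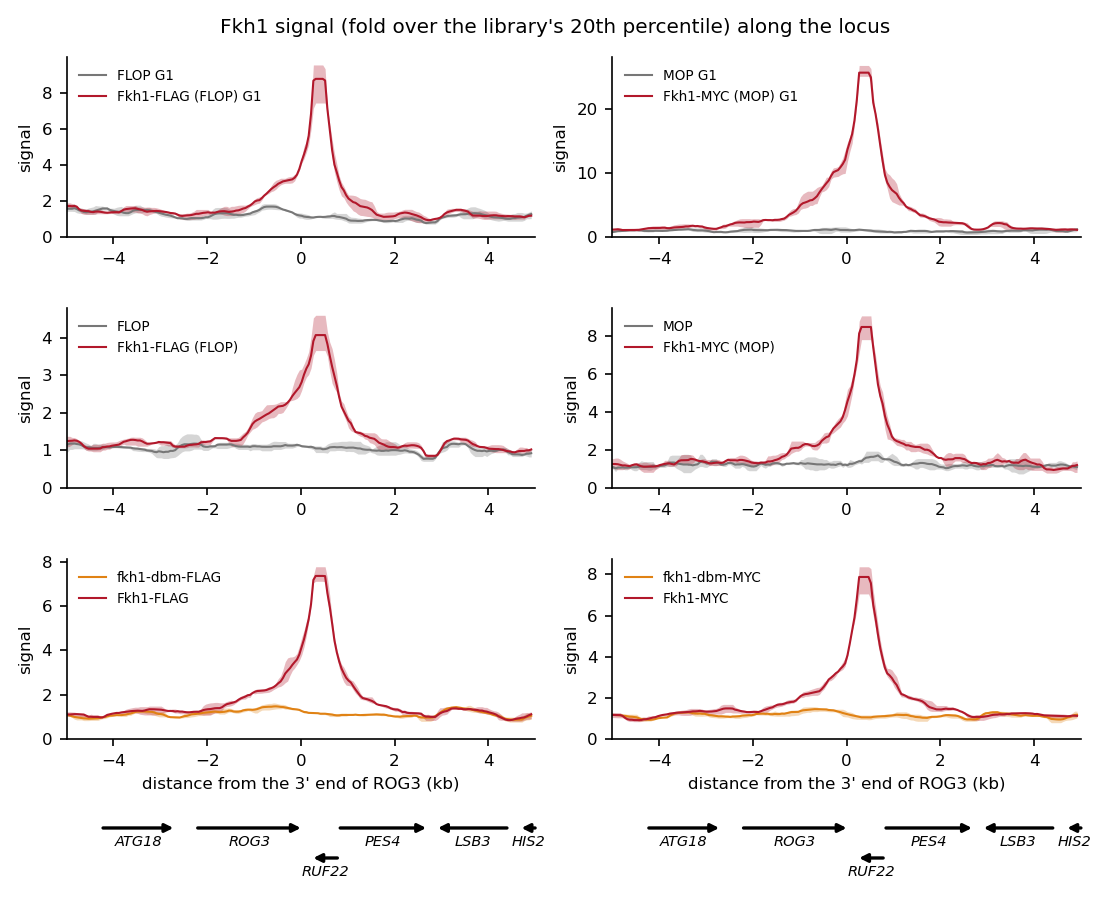
Signal along the locus against the distance from the 3' end of ROG3 (kb), as the mean of 3 libraries (line) and their range (band), for 6 Fkh1 groups (red) and their LexA (grey) or fkh1-dbm (orange) controls, each panel with its own signal axis. Each Fkh1 group has its highest signal in the gap between ROG3 and PES4, and the means of the Fkh1 bin in these controls are 1.09 to 1.36.

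In unsynchronized cells both tagged proteins made in a LexA strain were enriched in the same bin over their controls. It measured 6.52, 6.19 and 6.81 in Fkh1-MYC (MOP) against 1.42, 1.22 and 1.43 in MOP, a log2 fold change of 2.43 ± 0.16 (SE) with an adjusted p of 4.38e-23 (edgeR). Called enriched were 3 of the 20 bins, against 3% of all bins. For the FLAG pair it measured 3.23, 3.25 and 3.90 in Fkh1-FLAG (FLOP) against 1.12, 1.04 and 1.11 in FLOP, with a log2 fold change of 1.82 ± 0.11 (SE) and an adjusted p of 2.01e-20. Again 3 bins were called, against 1.66% of all bins. In both pairs no experimental library overlapped a control library at this bin. The ratios of 4.80 and 3.18 ranked 66 of 20883 and 71 of 20882 among all bins. The G1 rank of Fkh1-FLAG was fixed by the choice of the locus, so it is not compared with the unsynchronized rank.

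Between the cultures, the Fkh1-MYC (MOP) signal of the bin was 19.9 ± 1.03 (SD, n = 3) in G1 and 6.51 ± 0.31 (SD, n = 3) in unsynchronized cells, a log2 fold change of 1.65 ± 0.14 (SE, adjusted p of 2.23e-12 by edgeR). Called higher in G1 were 5 bins of the locus, against 5.04% of all bins, with 0.34% called lower. With TMM normalization those shares were 2.89% and 1.23%, and the median bin stood 0.18 higher in G1 on the log2 scale. Relative to that median the change at the bin was 1.47. The MOP control measured 1.10 ± 0.18 in G1 and 1.36 ± 0.12 (SD, n = 3 each) in unsynchronized cells, with no test. Set against its own control in each culture, the Fkh1-MYC change was greater in G1 by 1.93 ± 0.24 on the log2 scale (SE, adjusted p of 2.4e-08 by edgeR). This difference was called in 7 of the 20 bins, against 1.23% of all bins, from chrVI:197001 to chrVI:201000 with the exception of chrVI:197501-198000. With the middle window of each bin it was called in 3 bins of the locus, and in 88 in place of 256 of all bins. The greatest of them, 2.44 ± 0.25, was in chrVI:199501-200000, next to the Fkh1 bin. For Fkh1-FLAG (FLOP), whose G1 libraries chose the locus, the means were 6.51 ± 0.66 in G1 and 3.46 ± 0.38 in unsynchronized cells (SD, n = 3 each), with no test.

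Fkh1 also gave a peak in strains without LexA. The bin measured 5.60, 5.70 and 6.16 in Fkh1-FLAG and 1.00, 1.13 and 0.913 in untagged anti-FLAG. Fkh1-MYC gave 6.36, 5.82 and 6.38, and untagged anti-MYC 1.50, 1.48 and 1.67. Neither pair overlapped, and the log2 fold changes were 2.72 ± 0.10 (adjusted p of 4.25e-49) and 2.15 ± 0.17 (adjusted p of 4.36e-07, SE and edgeR for both). Enriched were 4 bins for FLAG, against 2.03% of all bins, and 3 for MYC, against 3.41%. The untagged anti-MYC libraries are the shallowest of the series, and their median bin stood 0.12 above that of Fkh1-MYC on the log2 scale.

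Comparisons added after the values had been seen set the strains with and without LexA side by side. Fkh1-FLAG was lower with FLOP (3.46 ± 0.38) than without (5.82 ± 0.30, SD, n = 3 each), by 0.79 ± 0.13 on the log2 scale (SE, adjusted p of 4.42e-06 by edgeR) and in all 9 pairs of libraries, a change under the fold minimum. Fkh1-MYC with MOP (6.51 ± 0.31) and without (6.19 ± 0.32, SD, n = 3 each) differed by 0.10 ± 0.11 (SE, adjusted p of 0.698), less than the spread between libraries. In these 2 comparisons edgeR and DESeq2 called 0 bins of the locus. By edgeR 8 and 2 bins had an unadjusted p below 0.05. An adjusted p below 0.05 was reached by 6 (FLAG) and 0 (MYC), and those 6 missed only the fold minimum. Of all bins, 0.369% were called higher and 0.206% lower with FLOP, and 0.091% and 0.0671% with MOP (0.091% and 0.105% with TMM). 

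The DNA-binding mutant of Fkh1 left no peak at the locus. The Fkh1 bin measured 1.22, 1.19 and 1.20 in fkh1-dbm-FLAG and 1.24, 0.993 and 1.14 in fkh1-dbm-MYC, inside the range of the untagged and LexA libraries. Against them Fkh1-FLAG was enriched by 2.43 ± 0.09 on the log2 scale (adjusted p of 1.76e-37) and Fkh1-MYC by 2.67 ± 0.09 (adjusted p of 4.07e-39, SE and edgeR for both). Called enriched were 3 of the 20 bins in either comparison, against 1.85% and 3.31% of all bins. They were the Fkh1 bin and its neighbors on either side, chrVI:198501-200000. Set against the untagged strain, fkh1-dbm-FLAG was higher in the bin by 0.29 ± 0.10 (adjusted p of 0.045, 9 of 9 pairs) and fkh1-dbm-MYC lower by a log2 fold change of -0.52 ± 0.16 (adjusted p of 0.0597, 0 of 9 pairs higher). Neither change reached the fold minimum. Over the alternatives (edgeR or DESeq2) the adjusted p ran from 0.0247 to 0.531 for FLAG and from 0.0147 to 0.314 for MYC. Which side of 0.05 it fell on thus depended on the processing. In both comparisons edgeR and DESeq2 called 0 bins of the locus. By edgeR 6 bins (FLAG) and 5 bins (MYC) had an unadjusted p below 0.05. An adjusted p below 0.05 was reached by 2 (FLAG) and 0 (MYC), and those 2 missed only the fold minimum. Of all bins, 0.0958% were called higher and 0.345% lower for FLAG, and 0.977% and 0.125% for MYC.

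Orc1 and Mcm4 were both enriched in the gap, Mcm4 more than Orc1. The Fkh1 bin measured 3.15, 2.50 and 3.03 in Orc1-HA (HOP) G1 and 1.27, 0.988 and 1.48 in HOP G1. Orc1 was above the control in all 9 pairs, by 1.37 ± 0.19 on the log2 scale (SE, adjusted p of 3.09e-08 by edgeR). In Mcm4-HA (HOP) G1 the bin measured 5.53, 4.06 and 5.71, which was 2.26 ± 0.18 above HOP G1 (SE, adjusted p of 3.69e-15). For each protein 2 of the 20 bins were called enriched, those of chrVI:199001-200000, against 3.72% of all bins for Orc1 and 2.17% for Mcm4. In the second of these bins the log2 fold changes were 1.58 for Orc1 and 2.11 for Mcm4. Both comparisons share the HOP libraries, and their median bins stood at -0.11 and -0.10, so relative to the median the changes were 1.48 and 2.36. Its own signal in the gap (1.25 ± 0.25) was below its signal over the end of ROG3 (1.98 in chrVI:198501-199000).

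Set directly against each other, Mcm4 exceeded Orc1 at the Fkh1 bin by 0.89 ± 0.15 on the log2 scale (SE, adjusted p of 6.26e-07 by edgeR, 9 of 9 pairs), under the fold minimum. Without Mcm4-HA (HOP) G1 replicate 2, which was the lowest of its group, the difference was 1.04 and was called. With all libraries edgeR and DESeq2 called 0 of the 20 bins. By edgeR 6 bins had an unadjusted p below 0.05, and 3 an adjusted p below 0.05 with a change under the fold minimum. Of all bins, 0.024% were called higher in Mcm4 and 1.41% higher in Orc1. In rank among all bins the ratio to HOP was 26 for Mcm4 (4.09) and 606 for Orc1 (2.32), of 20874.

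Sir2 signal was low over the gap and PES4. The Fkh1 bin measured 0.741, 0.881 and 0.734 in Sir2-FLAG (FLOP) G1, below each of the FLOP G1 libraries, which also served in choosing the locus. The fitted log2 fold change was -0.61 ± 0.17 (SE), given without a p because its control libraries took part in choosing the bin. Relative to the median bin, which stood 0.17 higher in Sir2-FLAG, it was -0.77. In 8 of the 20 bins all Sir2-FLAG libraries were below all FLOP G1 libraries, against 11.6% of all bins. Of these, 6 ran from chrVI:199001 to chrVI:202000, and the other 2 lay at the left end of the region, chrVI:194001-195000, with ratios of 0.799 and 0.683. The lowest ratio was 0.501, in chrVI:200501-201000, and RUF22 and PES4 had 0.553 and 0.628 where ROG3 had 1.06 and LSB3 1.07. By edgeR 0 bins of the locus were called, with 7 at an unadjusted and 6 at an adjusted p below 0.05. By DESeq2 2 were called depleted, and all these counts rest on the same control libraries. With TMM normalization, or without Sir2-FLAG (FLOP) G1 replicate 1, edgeR called 2 bins depleted, and without FLOP G1 replicate 3 it called 1. Those calls also rest on the control libraries that helped choose the locus, so nothing is read from them. Of all bins, 1.8% were called enriched and 1.32% depleted (1.15% and 2.28% with TMM). The 3 Sir2-FLAG libraries had 20th percentiles of 53.5, 27 and 33.5 counts, and the part of these background counts and of depth was not tested.

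**Figure D3:**
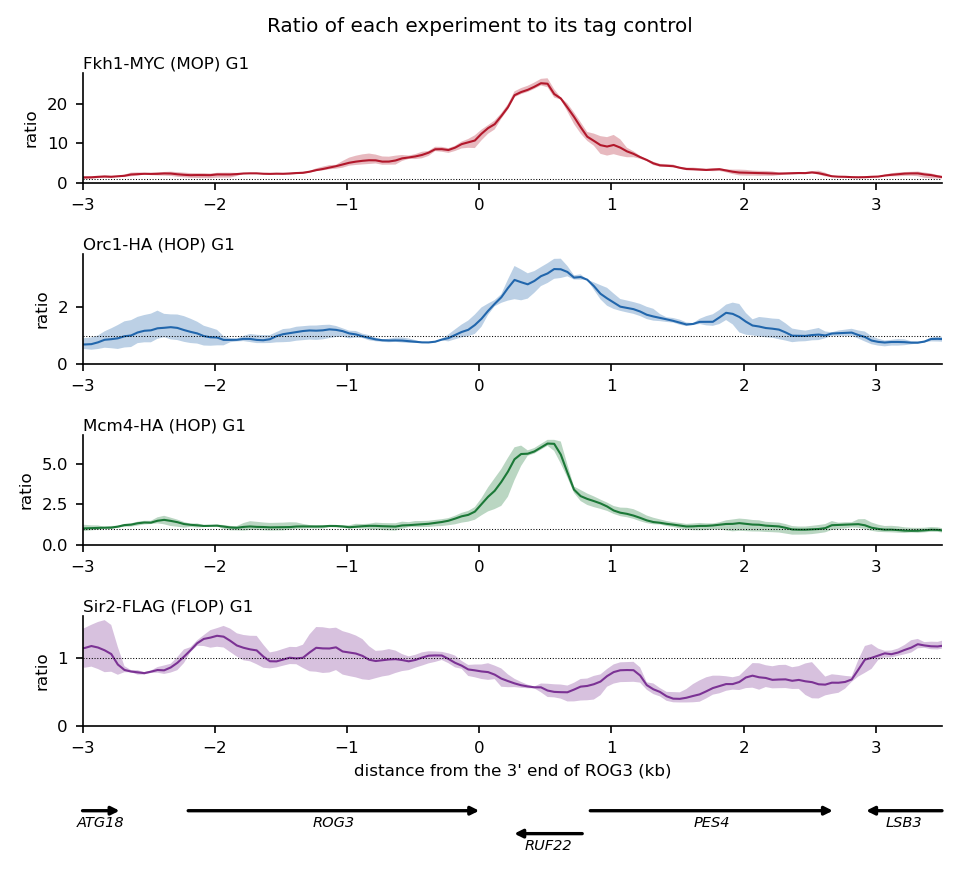
Ratio of each G1 experiment to its LexA control against the distance from the 3' end of ROG3 (kb), as the mean of 3 libraries (line) and their range (band), with the genes below and a ratio of 1 dotted. Fkh1-MYC, Orc1-HA and Mcm4-HA have their summits in the gap between ROG3 and PES4, where the Sir2-FLAG ratio is under 1.

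**Figure D4:**
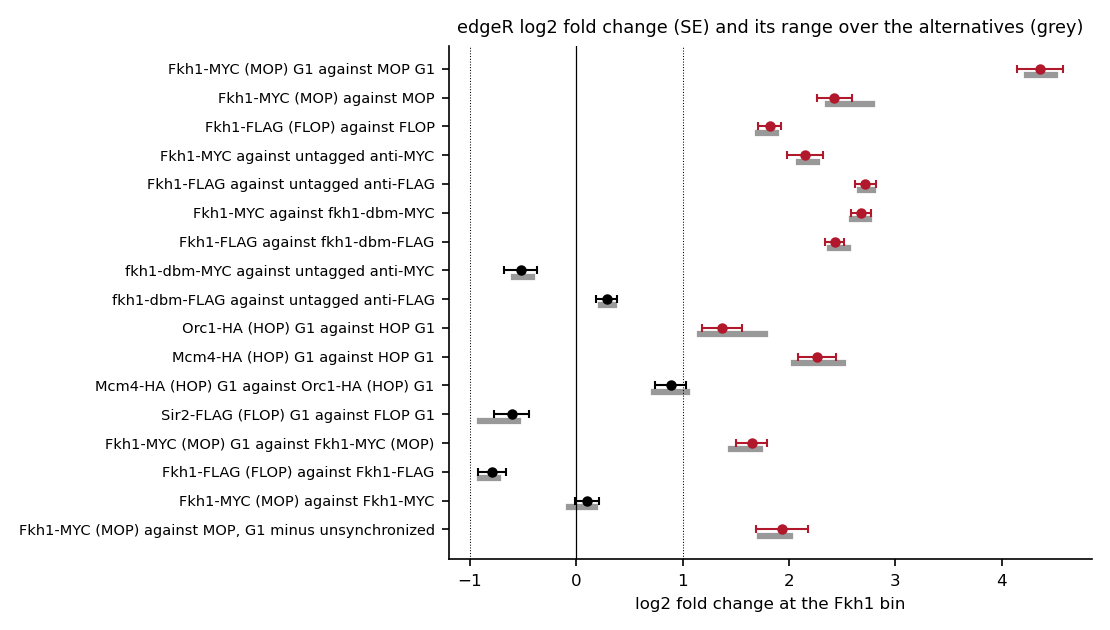
Log2 fold change at the Fkh1 bin with its SE (points and bars, edgeR, red where called) for 16 comparisons and 1 difference of changes, with the range over all alternatives in grey. Dotted lines mark the fold minimum of 1 in size. Every red point kept its call in each alternative.

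The peaks were then placed by the highest window of the ratio in each library. Fkh1-FLAG (FLOP) G1 had its summit at chrVI:199351 in replicate 1 and chrVI:199301 in replicates 2 and 3, that is 317, 267 and 267 bp past the end of ROG3. Fkh1-MYC (MOP) G1 had it at 199501, 199551 and 199501. Mcm4-HA summits lay at 199551, 199601 and 199601, and Orc1-HA summits at 199601, 199701 and 199651, which is 273, 173 and 223 bp before PES4. All of them fell inside RUF22. In unsynchronized cells the summit was at 199501 in each Fkh1-FLAG (FLOP) library and at 199351 in each Fkh1-MYC (MOP) library. With this smoothing the order of the tags in the LexA strains was thus the reverse of that in G1. The unsynchronized strains without LexA, set against fkh1-dbm, did not show that order. Their summits averaged 199493 for Fkh1-FLAG and 199501 for Fkh1-MYC, less than 1 window apart. The positions depend on the smoothing and on the control. Without the moving median, the Fkh1-FLAG G1 summit averaged 199393 and the Fkh1-MYC G1 summit 199459, the Orc1 summits were at 199776, 199726 and 199676, and the Mcm4 summits spread from 199376 to 199676. Without division by the control the order of the tags in G1 turned (Fkh1-FLAG 199418, Fkh1-MYC 199401), and with a moving median over 20 windows both were at 199668.

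The width of a peak was the run of windows above the midpoint between the summit and the median of the region. It was 517 ± 76.4 bp for Fkh1-FLAG G1, 717 ± 28.9 bp for Fkh1-MYC G1, 550 ± 86.6 bp for Mcm4 and 933 ± 236 bp for Orc1 (SD, n = 3 each). The 3 Orc1 widths were 850, 1200 and 750 bp, all above the Mcm4 widths of 600, 450 and 600 bp. This order depends on the smoothing: without the moving median the Orc1 widths were 300, 300 and 650 bp and the Mcm4 widths 550, 450 and 650 bp, so that the mean was lower for Orc1 (417 bp) than for Mcm4 (550 bp). On average the weighted center of the Orc1 peak was 142 bp to the right of that of Mcm4 and 146 bp to the right of that of Fkh1-MYC G1. The libraries did not overlap in either case. The Orc1 centers were 199569, 199730 and 199555 and the Mcm4 centers 199443, 199534 and 199451. Replicate 2 of Orc1 thus lay far to the right of the others, which were less than 1 window of 50 bp from the highest Mcm4 center. The Mcm4 and Fkh1-MYC centers differed by 3.46 bp and overlapped. Without the moving median the Orc1 centers (199759, 199744 and 199538) and the Mcm4 centers (199407, 199547 and 199437) overlapped too. In 12 exact permutation tests (two-sided) of positions, centers and widths, 7 reached the smallest p that 3 against 3 libraries allow, 0.1, with an adjusted p of 0.171, so no difference of place or width could pass 0.05. The ratio at the summit was 8.03 ± 1.15 for Fkh1-FLAG G1, 25.2 ± 1.04 for Fkh1-MYC G1, 6.35 ± 0.17 for Mcm4 and 3.37 ± 0.31 for Orc1 (SD, n = 3 each).

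The flanks of the peaks were compared next. In Orc1-HA the bin on the PES4 side, chrVI:200001-200500, had 1.11, 1.45 and 1.30 times the signal of the bin on the ROG3 side, chrVI:198501-199000. In Fkh1-MYC G1 this quotient was 0.545, 0.605 and 0.610, in Mcm4-HA 0.587, 0.814 and 0.821 and in HOP G1 0.553, 0.762 and 0.524. By this quotient of signals, not divided by the control, Orc1 was the only one of these groups with more toward PES4 in all its libraries. As a ratio to control, Mcm4 was also higher on the PES4 side (1.73 against 1.44), as was Orc1 (1.87 against 0.889). Fkh1-MYC G1 was lower there (6.78 against 8.23). These measures were chosen after the profiles had been seen and were not tested.

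The locus was set beside 2 other Fkh1 sites, and its Orc1 and Mcm4 ratios were higher than theirs in every library pair, without passing the test. The bin by HOS3 and IDI1 (chrXVI:329001-329500) had a Fkh1-MYC G1 ratio of 18.4 ± 2.85, like the 18.1 ± 0.93 of ROG3, and the bin between KAR4 and SPB1 on chromosome III, where the recombination enhancer of mating-type switching lies, had 9.89 ± 0.94 (SD, n = 3 each). In unsynchronized cells the Fkh1-MYC (MOP) ratios of these sites were 16.3 and 30.1, against 4.80 at ROG3, with no test. Their Orc1 ratios were 1.36 and 1.25 and their Mcm4 ratios 1.33 and 1.12. The ROG3 locus was higher than HOS3 and IDI1 by 0.77 ± 0.13 in Orc1 and 1.67 ± 0.45 in Mcm4 on the log2 scale, and higher than KAR4 and SPB1 by 0.90 ± 0.14 and 1.85 ± 0.07 (SE, 9 of 9 pairs in each). Each exact permutation p was 0.1, the smallest possible, and 0.143 after adjustment over 10 tests. Other Fkh1 sites did have Orc1 and Mcm4 signal: the bin between FLR1 and HHF1, the highest in Fkh1-FLAG G1, had ratios of 3.20 in Orc1, 3.92 in Mcm4 and 23.3 in Fkh1-MYC G1.

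The Fkh1 bin was also compared with 2 bins of very high Orc1 signal, each the highest Orc1 bin of its region. Its lower Orc1 ratio follows in part from that choice. At ICL1 (chrV:287501-288000) and LSM2 (chrII:170001-170500) the Orc1 ratios were 28.8 ± 1.66 and 19.9 ± 0.82, against 2.32 ± 0.28 in the Fkh1 bin. The Mcm4 ratios were 3.78 ± 0.05, 3.80 ± 0.26 and, in the Fkh1 bin, 4.09 ± 0.72 (SD, n = 3 each). The highest Orc1 bin of the locus, chrVI:199501-200000, had 3.06 ± 0.14 in Orc1 and 4.39 ± 0.26 in Mcm4 (SD, n = 3 each). The log2 differences in Mcm4 between the Fkh1 bin and these sites, 0.10 ± 0.24 and 0.03 ± 0.49 (SE), were smaller than their errors (exact permutation p of 0.9 for both). With 3 libraries each and such errors, this does not show that the Mcm4 amounts were equal. At ICL1 and LSM2 the Fkh1-MYC G1 ratios were 3.57 and 1.20. A low Sir2 to FLOP ratio was not particular to the Fkh1 bin of ROG3 (0.696). It was 0.696 at HOS3 and IDI1, 0.472 between KAR4 and SPB1, 0.566 at ICL1 and 0.734 at LSM2, with no test.

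The locus was also placed among regions of Orc1 signal, defined as runs of bins with an Orc1 to HOP ratio of at least 2 in each of the 3 libraries. Bins to the right of ADE2 and TRP1 were left out of this search. There were 315 such regions, and ROG3 was among them with chrVI:199001-200000. By its highest bin the locus ranked 231 in Orc1 (3.06, where the median region had 3.96), 16 in Mcm4 (4.39, median 2.74), 3 in Fkh1-MYC G1 (18.1, median 1.69) and 2 in Fkh1-FLAG G1, the measure that chose it. Its Mcm4 ratio was 1.43 times its Orc1 ratio, the 5th highest quotient of the 315, where the median was 0.663. Its lowest Sir2 ratio, 0.558, ranked 51 from the bottom (median 0.866). On chromosome VI there were 13 such regions. The next highest Fkh1-MYC G1 ratios there were 7.27, at chrVI:4001-6500 by COS4, and 4.24, between CDC4 and SMC1, and the region between SUP11 and DCV1 had the greatest quotient of Mcm4 to Orc1, 2.03, with a Fkh1-MYC G1 ratio of 1.14. These ranks describe averaged values, the regions were chosen on Orc1 after seeing the data, and nothing was tested. Bins with a lower Orc1 ratio did not enter, whatever their Mcm4 ratio. An example is chrV:94001-94500 between SPF1 and ECM10, with 1.71 in Orc1 and 4.10 in Mcm4.

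**Figure D5:**
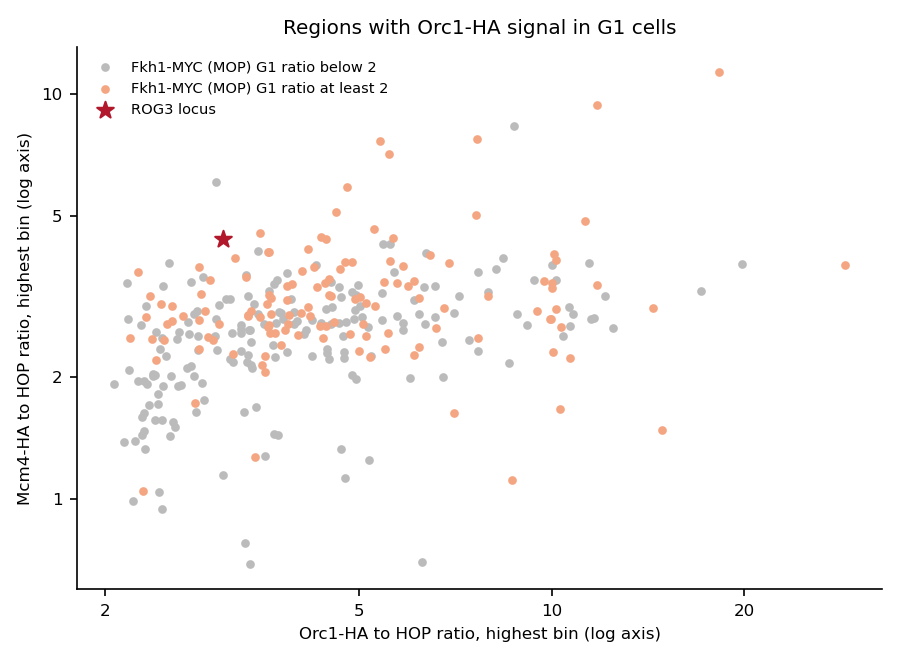
Mcm4-HA to HOP ratio against Orc1-HA to HOP ratio in G1 cells for 315 regions of Orc1 signal, each by its highest bin, on log axes, colored by whether the Fkh1-MYC (MOP) G1 ratio is at least 2. The ROG3 locus (star) has an Orc1 ratio of 3.06 and a Mcm4 ratio of 4.39, toward the left and upper side of the cloud.

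Within the locus, the log2 signal of the neighboring bins over the 60 libraries followed that of the Fkh1 bin more loosely with distance. Pearson's r was 0.98 in the bin to the right and 0.92 in the bin to the left, 0.57 at chrVI:201501-202000 and 0.08 at the right end of the region. Outside it, the 5 regions with the most similar pattern were at SPF1 and ECM10 on chromosome V (r = 0.96), YJR098C on X (0.957), SKN1 and SUF4 on VII (0.956), HIT1 and YNCJ0026W on X (0.954) and DCG1 on IX (0.954). Their Fkh1-MYC G1 ratios were 8.07 to 15.7, their Orc1 ratios 1.71 to 4.43 and their Mcm4 ratios 2.51 to 4.37. All points share the same libraries and the Fkh1 groups set most of the range, so these values are a description.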

How the data were processed

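The authors separated barcoded reads with fastq-multx, aligned them with Bowtie2, removed duplicates with samtools and deposited, for each of 60 libraries, bedtools counts of reads over 50 bp windows. A read that spans neighboring windows enters each of them, so windows are not independent.

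For tests, the window counts were added up, without smoothing, to 24134 bins of 500 bp. Of these, 3194 to the right of ADE2 and TRP1 (starting 1 kb before the gene), where the LexA constructs were integrated, were left out, and 20940 were used. Ranks among all bins, shares of all bins and the regions of Orc1 signal leave out the same 3194 bins. edgeR 4.0.16 (quasi-likelihood test, R 4.3.3) was fitted to the libraries of each comparison, with library sizes from the 20th percentile and Benjamini-Hochberg adjustment over all bins tested. Bins needed 10 or more counts in 3 or more libraries. Calls required an adjusted p under 0.05 and a log2 change of 1 or more in size. Errors printed with log2 fold changes are SE, other errors SD. Signals, ratios, peaks and exact permutation tests were computed with Python 3.11.15 (numpy 2.4.6, pandas 2.3.3, scipy 1.17.1) and plotted with matplotlib 3.10.9. The scripts for tests were checked on simulated data. Alternatives were TMM, DESeq2 1.42.0, no count filter, the middle window of each bin, a replicate block, 1 fit of all libraries, leaving out each library, and for peaks other smoothing, scaling and no control.

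Named were the locus, the genes annotated in it, those of 4 comparison loci, and the 5 regions outside 5 kb most correlated with it. Gene positions come from RefSeq (R64). The design also named an annotated origin. The bin holding the middle of the gap between ROG3 and PES4, and regions of Orc1 signal, were used in its place, a choice made after seeing the data. The locus, its members and all lists were chosen with earlier results of these data known. Counting error and p-values cover only the spread between these libraries, with summed counts per library of 2116658 to 44263661 (median 18237294).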

Additional observations from a re-analysis of the deposited data

Results flagged for a closer look

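The change of Fkh1-MYC (MOP) against its MOP control at the Fkh1 bin differed between the cultures, by a test of the difference itself. It was 4.36 on the log2 scale in G1 cells and 2.43 in unsynchronized cells, a difference of 1.93 ± 0.24 (SE, adjusted p of 2.4e-08 by edgeR). The difference was called in 7 of the 20 bins of the locus, against 1.23% of all bins, and with the middle window of each bin in 3 of them (88 of all bins in place of 256). The MOP libraries measured 0.894 to 1.24 in G1 and 1.22 to 1.43 in unsynchronized cells, and their 20th percentiles were 11 to 15.5 counts in both cultures. The part of the control and of depth in the difference was not tested.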

How the results depend on the processing

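At the Fkh1 bin, 17 results were recomputed under 210 alternatives, and 208 kept their direction and their side of the threshold. Fkh1-MYC (MOP) against Fkh1-MYC, 0.10 on the log2 scale and not called, was -0.0697 with the middle window of each bin. Mcm4 against Orc1 ranged from 0.78 to 1.04 when each library was left out, and was called without Mcm4-HA (HOP) G1 replicate 2 (1.04). The cause was not tested.

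In 0 of 16 comparisons was every correlation between the deviations of same-numbered libraries above 0.1, the limit set for pairing. These correlations ranged from -0.32 to 0.16. In Fkh1-FLAG (FLOP) against Fkh1-FLAG they were 0.129, 0.0218 and 0.159, and each library correlated best with its own number. In no other comparison did all libraries do so. With the replicate number as a block, the log2 fold change was 4.36 for Fkh1-MYC (MOP) G1, 1.39 for Orc1, 2.27 for Mcm4, 0.88 for Mcm4 against Orc1, -0.61 for Sir2 and 1.93 for the difference between cultures. The block changed no call at this bin.

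Of 84 recomputed peak values, 56 moved by less than 1 SD and 28 by more. All 28 came from other smoothing, other scaling or no control. Leaving out 1 of 3 libraries cannot move a mean by 1 SD, so those alternatives stayed by construction and say nothing on stability. Without the moving median, positions averaged 199393 (Fkh1-FLAG G1), 199459 (Fkh1-MYC G1), 199726 (Orc1) and 199493 (Mcm4), widths 333, 600, 417 and 550 bp (Orc1 then narrower than Mcm4), and ratios 12.3, 27.7, 4.23 and 7.21. With 20 windows, both Fkh1 positions were 199668 and that of Mcm4 199551, widths were 883 and 900 bp for Fkh1 and 767 bp for Mcm4, and ratios 4.83, 18.5, 2.94 and 4.25. Without division by the control, positions were 199418, 199401, 199501 and 199468, and the Mcm4 ratio was 7.10. With the library median, the Fkh1-MYC G1 ratio was 23.9 and that of Mcm4 6.64.

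Of 840 counts of called bins, 777 stayed within 1.5 times. At the locus, bins called depleted in Sir2 rose from 0 to 2 with TMM, DESeq2 or the middle window, a count that rests on control libraries that helped choose the locus. The difference between cultures fell from 7 bins to 3 with the middle window. Over all bins, Sir2 gave 376 enriched and 275 depleted bins, against 241 and 476 with TMM, 243 and 463 with DESeq2, 588 depleted with the middle window and 245 enriched without Sir2-FLAG (FLOP) G1 replicate 2. Fkh1-MYC (MOP) gave 1051 bins higher and 71 lower in G1, against 603 and 256 with TMM and 606 and 256 with DESeq2. The difference between cultures gave 256 bins higher in G1, against 88 with the middle window. The other counts that moved were of at most 237 bins. Low background counts limit the MYC and anti-HA G1 values most, with 8.5 to 32 counts at the 20th percentile in G1.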
